A study of Mus musculus with 3 samples.

Results

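The genes described here mark the mesonephros, the temporary embryonic kidney that lies beside the gonad, and the ducts that run along it. They are 9 genes chosen by name, with earlier results of these data known: Lhx1, Calb1, Pax2, Pax8, Gata3, Emx2, Cdh16, Ret and Wnt9b. All probes of these genes were taken, which gave 10 probes, 2 of them for Emx2 and 1 for each other gene, among 41153 probes and 16531 named genes on the array. RNA came from whole gonads of male mouse embryos of the MCH line with the genotype Cyp26b1-/-, collected at E12.5, E13.5 or E14.5. The missing gene, Cyp26b1, makes the enzyme that degrades retinoic acid in the fetal testis, and all 3 stages share its loss, so no comparison here separates the genotype from normal development. Each stage was measured on 2 one-colour Agilent arrays, called biological duplicates in the series' design text. The labels do not say how many embryos gave the RNA of an array, nor where the gonad was cut from the mesonephros. Which cells gave the signal of each gene, Lhx1 included, was not measured.

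The mesonephros forms tubules along the nephric (Wolffian) duct, and in males this duct later becomes the epididymis and vas deferens. Pax2, Pax8, Lhx1 and Gata3 are transcription factors that specify and maintain the duct, and Emx2 is a homeobox factor needed for the urogenital epithelia and also made by the surface epithelium of the early gonad. The duct signals through Wnt9b to the tubules around it and receives Gdnf through the receptor Ret, while Calb1 (a calcium-binding protein) and Cdh16 (kidney-specific cadherin) are proteins of duct and tubule cells.

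Promoter sequences were matched for 6 of the 9 genes in RefSeq's table for the build GRCm38.p6 (8 windows, from 250 bases before to 50 bases after each annotated start). Calb1, Cdh16 and Ret had no window. The windows of Lhx1 and Emx2 are shown because both genes fell between E12.5 and E14.5, beside that of Pax8, which did not pass the test. Capitals mark CCAAT boxes, a common promoter element read as CCAAT or, on the other strand, as ATTGG. Sequences run 5′ to 3′ in the direction of the gene.
Lhx1 (chr11:84525485-84525784, minus strand): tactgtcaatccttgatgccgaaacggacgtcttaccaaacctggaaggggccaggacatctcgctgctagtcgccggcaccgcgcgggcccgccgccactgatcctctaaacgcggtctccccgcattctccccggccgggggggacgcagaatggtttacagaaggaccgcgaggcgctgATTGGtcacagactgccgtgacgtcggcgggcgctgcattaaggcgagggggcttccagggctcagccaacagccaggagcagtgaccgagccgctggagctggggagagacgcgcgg
Emx2 (chr19:59458440-59458739, plus strand): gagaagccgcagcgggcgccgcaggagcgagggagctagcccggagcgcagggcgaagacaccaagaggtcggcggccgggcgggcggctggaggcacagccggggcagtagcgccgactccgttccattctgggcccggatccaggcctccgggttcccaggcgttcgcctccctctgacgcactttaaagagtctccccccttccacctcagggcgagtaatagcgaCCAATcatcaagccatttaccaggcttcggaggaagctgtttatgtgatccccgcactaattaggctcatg
Pax8 (chr2:24475550-24475849, minus strand): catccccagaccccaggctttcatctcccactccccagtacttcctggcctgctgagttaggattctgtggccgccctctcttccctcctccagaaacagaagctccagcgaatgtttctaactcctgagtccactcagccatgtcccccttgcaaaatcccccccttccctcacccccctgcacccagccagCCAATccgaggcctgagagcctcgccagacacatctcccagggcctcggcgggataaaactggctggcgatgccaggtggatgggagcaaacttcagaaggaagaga

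Each of these windows held 1 CCAAT box, starting 68 bases before the start of Lhx1 on the opposite strand, 21 bases before that of Emx2 and 57 bases before that of Pax8. GC content was 65.7% for Lhx1, 64.3% for Emx2 and 59.3% for Pax8, with 31, 26 and 7 CG pairs. The element was thus present in the windows shown of both genes that fell and of the one that did not pass. The windows of Gata3 and Wnt9b, neither of them called, held 22 and 29 CG pairs. Those of Pax2, called higher, held 7, 23 and 30. Whether these letters bear on the changes was not tested. Searched on both strands, CCAAT was found in 4 of the 8 windows (the fourth is that of Wnt9b) against 37.4% of 32851 mouse promoter windows of this length. The homeobox core TAATTA was found in 1 of 8, that of Emx2, where it starts 36 bases after the start, against 5.29% of all. AGGTCA, the core letters of sites bound by retinoic acid receptors, was found in 0 of 8 against 16.3% of all. Its direct repeat with 5 bases of any kind in between, which contains AGGTCA, was also in 0 of 8 against 0.00913% of all. These counts describe letters in the windows only.

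Values are log2 signals over the array's 75th percentile, called log2 signal below, so that 0 is the level of a probe at that percentile. A probe's level is not set against that of another probe. Each difference is that of 2 stage means with its SE, fitted by limma (n = 2 for each stage). P-values were adjusted by Benjamini-Hochberg over 28391 probes, those that at some stage were well above background on both arrays, and a change was called at an adjusted p under 0.05. Slide and stage overlapped. The arrays of E12.5 shared a slide that held no other stage, so a difference of E12.5 from a later stage cannot be told apart from one between slides, and E14.5 against E13.5 alone was measured within a slide. In RNA of whole gonads, fewer cells of a type and less RNA per cell cannot be told apart either. The share of probes well above background ran from 65.3% to 70.1% by array.

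Lhx1 fell between E12.5 and E14.5, with the largest difference of the 8 genes tested, although its interval overlapped those of Calb1 and the second Emx2 probe. This LIM homeobox factor is among the earliest genes of the nephric duct. Its log2 signal was -0.53 and -0.26 on the E12.5 arrays, -0.78 and -1.55 on those of E13.5, and -2.78 and -3.41 on those of E14.5. The stages did not overlap, and both E14.5 arrays lay far below the other 4. Against E12.5, the E14.5 mean was 6.52-fold lower (-2.70 ± 0.32, 95% interval -3.51 to -1.90, adjusted p = 0.00355). The E14.5 arrays taken singly were at -2.39 and -3.02 against the E12.5 mean.

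By step, Lhx1 was at -0.77 ± 0.32 from E12.5 to E13.5 (adjusted p = 0.129) and at -1.94 ± 0.32 from E13.5 to E14.5 (95% interval -2.74 to -1.13, adjusted p = 0.16, unadjusted p = 0.00118). Neither single step passed over all probes. The later one lay within a slide, and no array of E14.5 reached those of E13.5. With normexp background correction both steps passed, at -0.71 (adjusted p = 0.0308) and -1.50 (adjusted p = 0.0188). The difference between the steps was -1.17 ± 0.56 and did not pass (adjusted p = 0.318), so the size of the steps was not shown to differ.

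**Figure D1:**
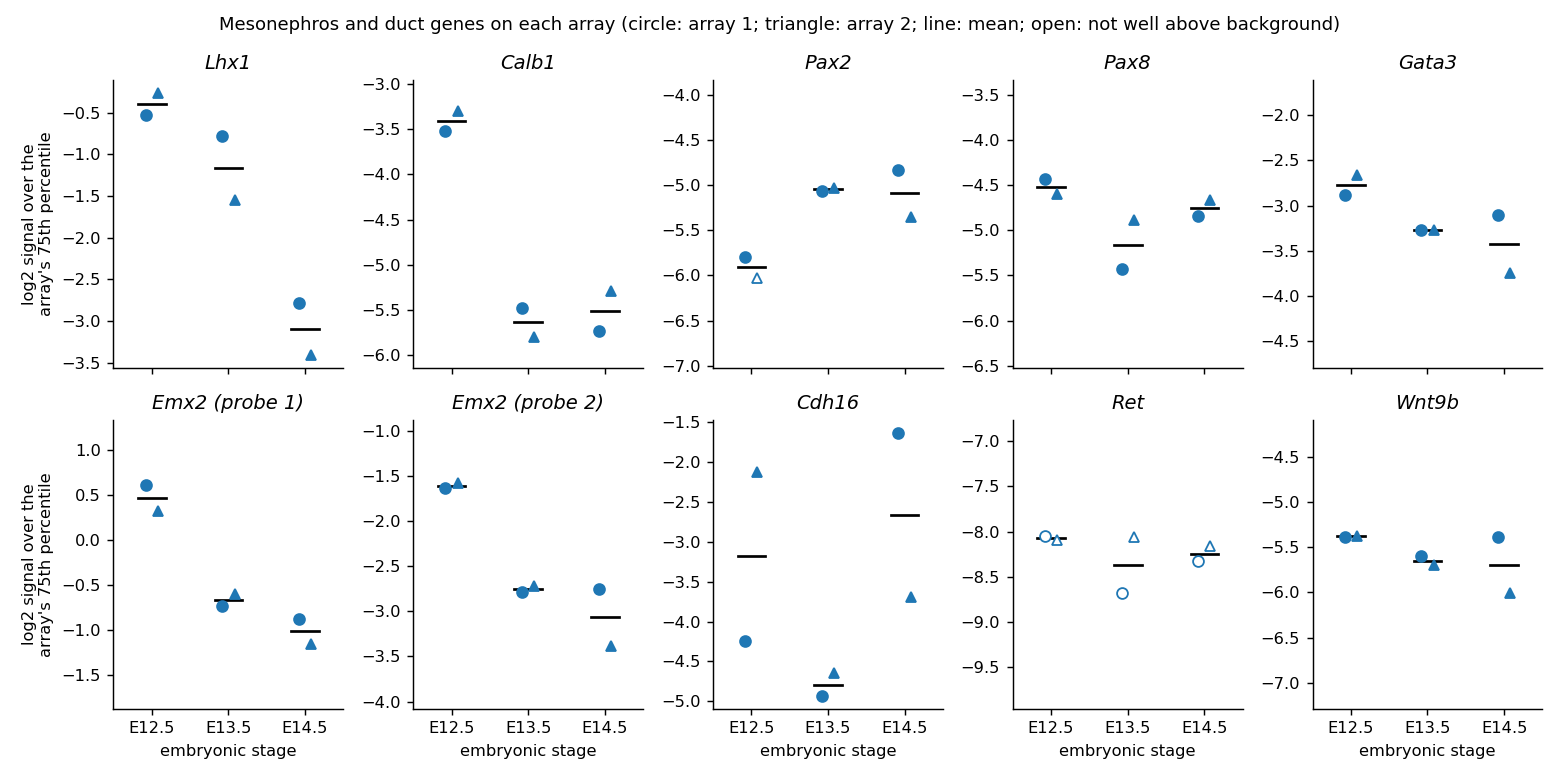
Log2 signal over the array's 75th percentile (vertical axis, a range of its own in each panel) for the 10 probes at each embryonic stage (horizontal axis). Circles are array 1, triangles array 2, lines the mean of both, and open symbols arrays on which the probe was not well above background. Lhx1 is lowest at E14.5, Calb1 and both Emx2 probes are high at E12.5 alone, and Ret has open symbols on all 6 arrays.

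Emx2 fell as well, and its 2 probes gave nearly the same change. The first probe was at 0.61 and 0.32 on the E12.5 arrays, -0.73 and -0.60 on those of E13.5, and -0.87 and -1.15 on those of E14.5. The second was at -1.63 and -1.58, then -2.78 and -2.72, then -2.75 and -3.38. On both probes the E12.5 arrays stood above the other 4. From E12.5 to E13.5 the change was -1.13 ± 0.17 on the first probe (adjusted p = 0.00976) and -1.15 ± 0.22 on the second (adjusted p = 0.0181). From E12.5 to E14.5 it was -1.48 ± 0.17 (2.78-fold lower, adjusted p = 0.00299) and -1.46 ± 0.22 (2.75-fold lower, adjusted p = 0.00596). Emx2 was therefore lower at both later stages on both probes.

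Between E13.5 and E14.5 the Emx2 probes were at -0.35 ± 0.17 (95% interval -0.75 to 0.06, adjusted p = 0.402) and -0.31 ± 0.22 (-0.85 to 0.23, adjusted p = 0.549). Neither passed. The E13.5 call of the second probe was lost with no background filter (adjusted p = 0.0531) and without any 1 of the 4 arrays compared (0.0666 to 0.0759). Its change to E14.5 was -0.94 with normexp, still past the threshold.

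Pax2 was the only one of the 9 genes called higher at a later stage. It encodes a paired-box factor without which the nephric duct is lost. Its log2 signal was -5.79 and -6.03 on the E12.5 arrays, -5.06 and -5.03 on those of E13.5, and -4.83 and -5.35 on those of E14.5. The probe was dim throughout, and at E12.5 it was well above background on 1 of 2 arrays. Its E12.5 arrays were below all later ones, by 0.86 ± 0.20 for E13.5 (1.82-fold higher, adjusted p = 0.0299) and 0.82 ± 0.20 for E14.5 (1.77-fold higher, adjusted p = 0.0238). From E13.5 to E14.5 it was at -0.04 ± 0.20 (-0.54 to 0.45, adjusted p = 0.944).

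These rises of Pax2 rest on few arrays. Leaving out any 1 of the 4 arrays ended the E13.5 call (0.74 to 0.98, adjusted p 0.0729 to 0.119), as did no background filter (0.0771) and a trend and robust prior (0.0513), and normexp gave 0.52. The E14.5 call was lost without array 1 of E12.5 (0.94, adjusted p = 0.0539), array 2 of E12.5 (0.70, 0.0979) or array 1 of E14.5 (0.56, 0.0678), and with no filter (0.0608). The value stayed above 0 in each of these.

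Pax8, a paired-box factor that acts with Pax2 in the duct, was not called at any stage. It was at -4.43 and -4.60 on the E12.5 arrays, -5.43 and -4.89 on those of E13.5, and -4.84 and -4.66 on those of E14.5. Its lowest arrays were those of E13.5. The change to E13.5 was -0.65 ± 0.21 (adjusted p = 0.0666), and it passed with median scaling (-0.73, adjusted p = 0.0285), with quantile normalization (-0.64, 0.0345) and with the filter on all 6 arrays (0.0478), but was 0.06 with normexp. To E14.5 it was at -0.23 ± 0.21 from E12.5 (-0.74 to 0.28, adjusted p = 0.408), and 0.29 with normexp. From E13.5 to E14.5 it was at 0.42 ± 0.21 (-0.09 to 0.93, adjusted p = 0.413).

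Gata3, a zinc-finger factor of the duct that keeps Ret expressed there, did not pass either. Its log2 signal was -2.88 and -2.66 on the E12.5 arrays, -3.27 and -3.27 on those of E13.5, and -3.11 and -3.75 on those of E14.5. All later arrays lay below those of E12.5. The difference from E12.5 was -0.50 ± 0.23 for E13.5 (adjusted p = 0.148) and -0.66 ± 0.23 for E14.5 (-1.22 to -0.11, adjusted p = 0.0628). From E13.5 to E14.5 it was -0.16 ± 0.23 (-0.72 to 0.40, adjusted p = 0.776). The E14.5 difference passed in 6 of 13 other settings, among them median scaling (-0.83, adjusted p = 0.0299), where all probes shifted by -0.16, and leaving out array 1 of E14.5 (-0.98, 0.02).

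Calb1 was lower at both E13.5 and E14.5 than at E12.5. Its log2 signal was -3.52 and -3.30 on the E12.5 arrays, -5.48 and -5.80 on those of E13.5, and -5.74 and -5.29 on those of E14.5. The later arrays were mixed among each other and all more than 1 log2 unit below E12.5. E13.5 was lower than E12.5 by 4.69-fold (-2.23 ± 0.20, adjusted p = 0.00445), and E14.5 was 4.29-fold lower (-2.10 ± 0.20, adjusted p = 0.00222). From E13.5 to E14.5 it was 0.13 ± 0.20 (-0.38 to 0.64, adjusted p = 0.805). Both calls against E12.5 held in all 13 other settings, but with normexp their sizes were -0.87 and -0.78.

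By array, Lhx1 was lowest at E14.5, while the E13.5 arrays of Calb1 already lay in the range of its E14.5 arrays or below. For Calb1 the second step minus the first was 2.36 ± 0.35, which did not pass (adjusted p = 0.0784). This contrast was added after the data were seen, and it was called for 10 of 28391 probes (0.0352%). For Emx2 it was 0.79 ± 0.29 and 0.84 ± 0.38 on the 2 probes (adjusted p 0.228 and 0.292).

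Cdh16, a cadherin of kidney tubule and duct epithelium, could not be placed in order because its duplicates disagreed. It was at -4.24 and -2.12 on the E12.5 arrays, -4.93 and -4.65 on those of E13.5, and -1.64 and -3.69 on those of E14.5. The E13.5 arrays were the lowest, and the E12.5 and E14.5 ranges overlapped. The differences were -1.61 ± 0.88 for E13.5 against E12.5 (-3.80 to 0.58, adjusted p = 0.219), 2.13 ± 0.88 for E14.5 against E13.5 (-0.06 to 4.32, adjusted p = 0.352) and 0.52 ± 0.88 for E14.5 against E12.5 (-1.67 to 2.70, adjusted p = 0.666). The last turned to -0.54 without array 1 of E12.5 and to -0.51 without array 1 of E14.5. None of the 6 signals was at background.

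Wnt9b, the duct ligand that induces tubules, showed no called change. It was at -5.38 and -5.37 on the E12.5 arrays, -5.60 and -5.70 on those of E13.5, and -5.38 and -6.01 on those of E14.5. One E14.5 array lay at the level of E12.5 and the other below all others. Against E12.5, E13.5 was at -0.27 ± 0.22 (-0.81 to 0.26, adjusted p = 0.377) and E14.5 at -0.32 ± 0.22 (-0.85 to 0.22, adjusted p = 0.283). From E13.5 to E14.5 it was at -0.04 ± 0.22 (-0.58 to 0.49, adjusted p = 0.946). Without array 1 of E14.5 the E14.5 difference from E12.5 was -0.63 and passed (adjusted p = 0.0379), and with normexp it was 0.16.

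Ret, the receptor tyrosine kinase through which Gdnf acts on the duct, was well above background on 0 of 6 arrays. Its log2 signal was -8.05 and -8.09 on the E12.5 arrays, -8.68 and -8.06 on those of E13.5, and -8.33 and -8.16 on those of E14.5. It therefore has no measured level on this probe and was not tested.

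**Figure D2:**
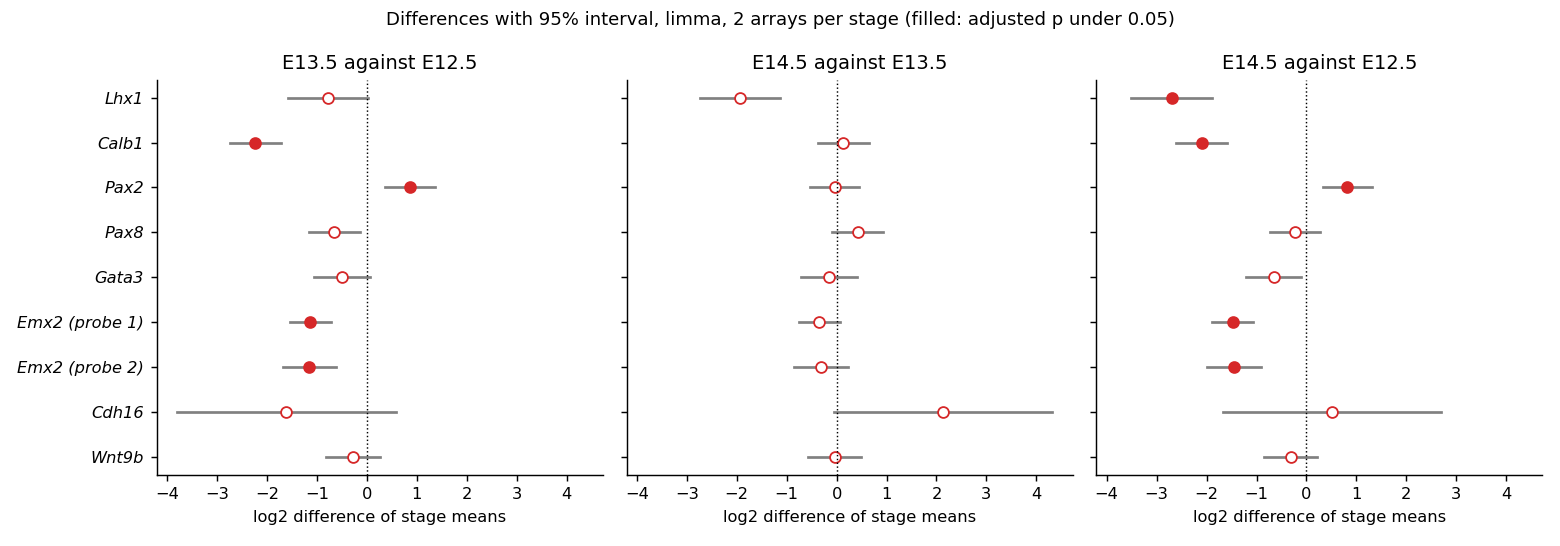
Log2 difference of stage means (horizontal axis) with its 95% interval for the 9 probes tested, in 1 panel per comparison; filled circles passed an adjusted p of 0.05 in limma. Lhx1, Calb1 and both Emx2 probes lie left of 0 and Pax2 right of 0 for E14.5 against E12.5, and no circle is filled for E14.5 against E13.5.

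Counted over the 9 probes tested (8 genes), E13.5 against E12.5 gave 3 lower (Calb1 and both Emx2 probes), 1 higher (Pax2) and 5 not past. Over all probes 27.4% were called in that comparison, 12.3% lower and 15.1% higher. Without any 1 of the 4 arrays compared 2 of the 9 were called, where all probes gave 1953 to 4088 calls in place of 7776. For E14.5 against E12.5 there were 4 lower (those 3 and Lhx1), 1 higher and 4 not past, against 40.1% of all probes called, 19.1% lower and 21.1% higher. The median difference of the 9 probes was -0.77 at E13.5 and -0.66 at E14.5, beside 0.02 and 0.00 for all probes. Emx2 enters it with 2 probes. On the brightest probe of each gene the medians were -0.71 and -0.49, beside 0.05 and 0.03 for named genes. A large share of the array moved in these 2 comparisons, and the genes were chosen with earlier results of these data known. A call by itself therefore does not set a duct gene apart. The share of calls that were higher depended on the scaling: it was 55.2% at E13.5 and 52.5% at E14.5, but 44.6% and 37.0% with median scaling, which put the median of all probes at -0.16 for E14.5 against E12.5, and 62.8% and 61.9% with normexp, which put it at 0.11. For E14.5 against E13.5 limma called 0 of the 9, with 1 of 28391 probes called (0.00352%). At an unadjusted p under 0.05 it was 1 of 9 (Lhx1) and 14.5% of all probes, and with normexp 1 of 9 and 369 probes passed. The median of the 9 was -0.04 and that of all probes -0.02.

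The 2 arrays of E14.5 were also set beside each other. Array 2 was below array 1 for 7 of the 9 probes, by 0.29 to 0.64 for 6 of them and by 2.05 for Cdh16, while Calb1 was higher by 0.45 and Pax8 by 0.18. Over all probes 56.2% were lower on array 2, and the median absolute gap was 0.17. At E12.5 and E13.5 array 2 was lower for 3 of 9 probes each. The Cdh16 gaps, 2.12 at E12.5 and 2.05 at E14.5, were exceeded by 0.37% and 0.215% of all probes at those stages. The Lhx1 gap of 0.77 at E13.5 was exceeded by 4.11%. On either E14.5 array the called probes of Lhx1, Calb1 and Emx2 lay below both E12.5 arrays and that of Pax2 above them. Pax8 and Gata3 also lay below them but did not pass the test, while Cdh16 and Wnt9b overlapped. How many of all probes were separated in this way was not counted, so the order does not set these genes apart.

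**Figure D3:**
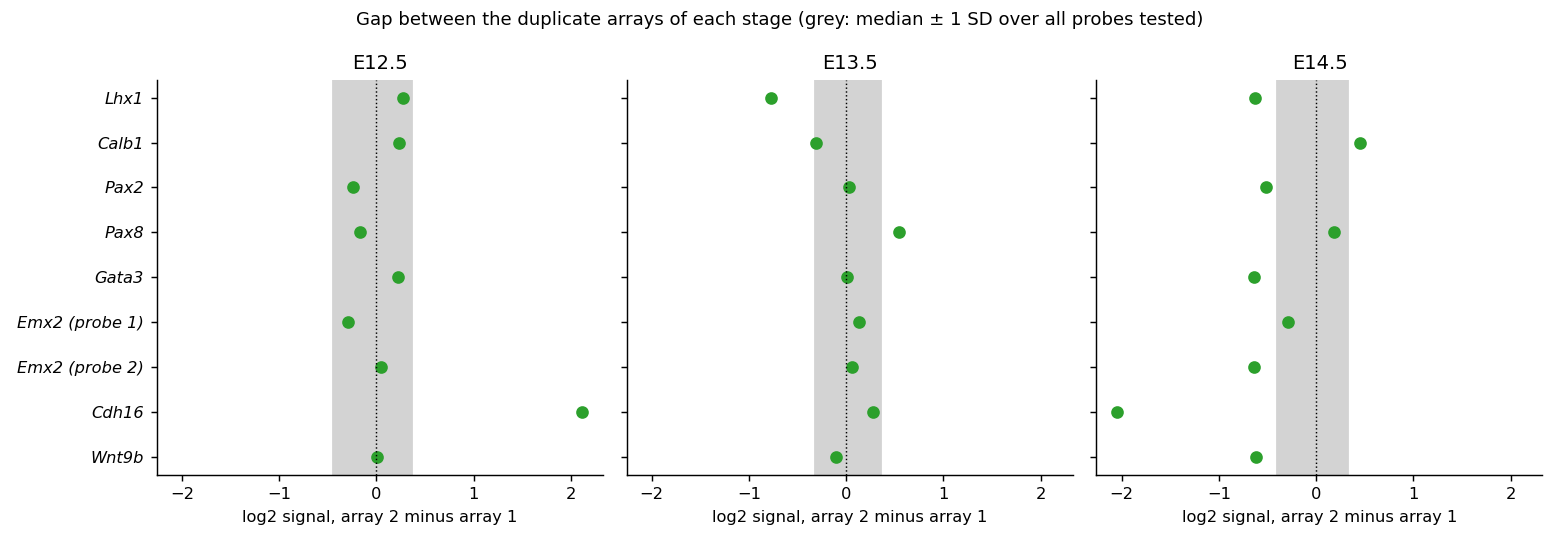
Log2 signal of array 2 minus array 1 (horizontal axis) for the 9 probes tested, in 1 panel per stage; the grey band is the median ± 1 SD of that gap over all probes tested. Cdh16 lies far outside the band at E12.5 (2.12) and E14.5 (-2.05), on opposite sides, and 7 of 9 points lie left of 0 at E14.5.

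Marker genes of neighbouring cell types moved across the same stages. Counts below are for E14.5 against E12.5, on the brightest probe of each gene, where 18.3% of named genes were called lower and 23.1% higher. Sums are of linear signals in units of the array's 75th percentile, given for E12.5, E13.5 and E14.5 in that order. For the 9 duct genes the sum was 2.59 to 2.66, 1.25 to 1.42 and 0.804 to 1.25, of which Emx2 held 42.4% to 59.0% and Lhx1 11.7% to 41.1% over the 6 arrays, so it mainly follows these 2 genes. The sum of 6 erythroid markers was 112 to 146, 49.5 to 67.4 and 15.9 to 31.1, with 4 of 6 lower and 0 higher, and Hbb-y, an embryonic globin, held 48.8% to 76.7% of it. That of 4 fetal Leydig markers was 2.5 to 3.5, 33.4 to 39.3 and 58.6 to 77.7, with 4 of 4 higher. For 5 germ cell markers it was 30.8 to 38.6, 116 to 137 and 154 to 175, with 4 of 5 higher, and Stra8 alone held 81.1% to 82.5% of it at E14.5. Beside Stra8 (2.96 ± 0.18), the germ cell gene Ddx4 rose by 1.05 ± 0.12 and Nanos2 was at least 7.16-fold higher, while the call of Dazl (0.84 ± 0.20) was lost with no filter (adjusted p = 0.056) and without array 1 of E12.5 or of E14.5 (adjusted p 0.0723 and 0.0893) and its other probe was at -0.29. Nanos2 was not well above background at E12.5 and passed the background filter through the later stages alone. The part of these cell types in the duct results was not tested.

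Among the remaining markers, metanephric (permanent kidney) genes summed to 2.4 to 3.19, 7.6 to 8.16 and 9.3 to 9.94, of which Cited1 held 94.0% to 97.6%. Cited1 (1.83 ± 0.17) and Meox1 (1.05 ± 0.14), the 2 tested, were both higher and well above background on all 6 arrays, while Six2, a gene of nephron progenitors, was so on 1 of 6. Of the adrenal markers, Cyp21a1 was well above background on 0 of 6 arrays and Mc2r on 6 of 6, the latter not past. Sertoli markers summed to 48.9 to 55.5, 48.0 to 49.4 and 38.4 to 43.9, with 3 of 6 lower (Sox9, Fgf9 and Sox8). The Sox8 call was lost in 6 of 12 other settings, among them normexp (-0.17, adjusted p = 0.307), no filter (0.0849), the replicate block (0.0544), and without array 1 or 2 of E12.5 (0.101 and 0.0954) or array 2 of E14.5 (0.142), and its other probe was at 0.38. Endothelial markers summed to 10.7 to 12.3, 9.80 to 10.2 and 9.17 to 9.53, with 1 of 5 lower (Kdr), a share near that of all named genes. The brightest probe of Cdh5 was at -0.31 ± 0.13 (adjusted p = 0.101). Its other probe, well above background on all 6 arrays, was lower by 1.02 ± 0.14 (adjusted p = 0.0048). The part of these remaining markers in the duct results was not tested either.

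Coelomic surface markers were set beside Emx2, which that surface also makes. They summed to 8.52 to 9.24, 8.72 to 8.74 and 7.80 to 8.36, with 1 of 5 higher (Msln) and 0 lower, again near the share of all named genes. The probes of Lhx9, a LIM homeobox factor of the early gonad and its surface, differed in the size of their change. The brightest was at 2.82 and 2.63 on the E12.5 arrays, 2.42 and 2.47 on those of E13.5, and 2.34 and 2.49 on those of E14.5. That probe changed by -0.31 ± 0.13 and did not pass (adjusted p = 0.108). The other, well above background on all 6 arrays, was at -0.67 and -0.44 on the E12.5 arrays, -2.45 and -2.35 on those of E13.5, and -2.62 and -2.56 on those of E14.5, a fall by 2.03 ± 0.13 (adjusted p = 0.00124). On both Lhx9 probes, as on those of Emx2, the E12.5 arrays stood above the other 4. How many of all probes showed that order was not counted, and the second Lhx9 probe was named after its values were seen.

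Beyond the 9, 51 genes of the duct and mesonephros were listed by role, also with earlier results of these data known. Of these, 48 had a probe and 44 were tested on their brightest probe. Between E12.5 and E14.5, 21 were lower, 11 higher and 12 not past (median -0.47), beside 41.4% called, 18.3% lower and 23.1% higher, and a median of 0.03 over 13422 named genes. Leaving out any single array of these stages reduced the number of lower genes. Leaving out array 2 of E12.5 or either array of E14.5 also reduced that of higher ones. The median was -0.39 and -0.49 without array 1 or 2 of E12.5, and -0.53 and -0.31 without array 1 or 2 of E14.5. From E12.5 to E13.5 there were 15 lower, 10 higher and 19 not past (median -0.34), beside 26.9% of named genes called, 11.0% lower and 15.9% higher. For E14.5 against E13.5 limma called 0 of the 44 and 0 named genes. At an unadjusted p under 0.05 there were 9 lower and 6 higher of the 44, beside 2147 of 13422 named genes, whose directions were not counted. With normexp 1 lower and 1 higher passed, beside 71 lower and 298 higher of 28391 probes.

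Genes listed under Ret signalling were lower at E14.5 throughout. Ret itself was not measurable, and whether signalling through Ret changed, in the duct or elsewhere, was not tested. All 7 measured members were lower than at E12.5 (median -1.18), and 4 of 7 were already lower at E13.5 (median -0.66). Gfra1, the co-receptor that binds Gdnf, was at -3.27 and -3.47 on the E12.5 arrays, -4.94 and -5.53 on those of E13.5, and -5.89 and -6.31 on those of E14.5. The stages did not overlap, and over both steps it fell by 2.73 ± 0.24 (adjusted p = 0.00185; with normexp it fell by 1.12), and at E14.5 it was above background on 1 of 2 arrays. Etv5, an ETS factor switched on by Ret signalling, was at -0.33 and -0.49, then -1.49 and -1.88, then -2.43 and -2.57, a fall by 2.09 ± 0.17 (adjusted p = 0.00156). Gdnf, the ligand, was at -1.87 and -1.77, then -2.22 and -2.36, then -2.91 and -3.13, a fall by 1.20 ± 0.13 (adjusted p = 0.00297; with normexp it fell by 0.65). The related ETS gene Etv4 fell by 1.18 ± 0.22 (adjusted p = 0.0112), a call lost without array 2 of E12.5 (0.0519). The other 3 were Spry1, Dusp6 and Wnt11. Gfra1, Etv5 and Gdnf are also made by cells of the testis itself. The Sertoli marker Fgf9, outside this list, fell too, by 2.15 ± 0.16 (adjusted p = 0.00142). Its part in the falls of this list was not tested. Calls in this list numbered 4, 5, 7 and 5 without array 1 or 2 of E12.5 and array 1 or 2 of E14.5.

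Transcription factors of the intermediate mesoderm and duct moved both ways, 5 lower, 4 higher and 4 not past of 13 (median 0.09). Hoxa11, a patterning gene of kidney and reproductive tract, was at -4.62 and -5.05 at E12.5 and not well above background on any later array, and was at least 2.83-fold lower at E14.5 (adjusted p = 0.026). Its call was lost in 5 of 11 other settings, among them normexp (-0.19, adjusted p = 0.238), no filter (0.0634), and without array 1 or 2 of E12.5 (0.107 and 0.0711) or array 2 of E14.5 (0.104). Hoxd11, of the same patterning group, went the other way, from not well above background on both E12.5 arrays to -5.25 and -5.27 at E14.5, at least 2.07-fold higher (adjusted p = 0.00184). Bounds such as these compare the mean of the brighter stage with, on each array of the dimmer one, the lowest signal called above background or the probe's own signal where that was higher. Hoxa11 and Hoxd11 passed the background filter only through the stages where they were high, and Wnt7a, named below, only through E13.5 and E14.5. Their adjusted p-values rest partly on signals not above background, so these calls are no separate support for a change. Grhl2, an epithelial factor of the duct, rose by 2.09 ± 0.29 (adjusted p = 0.005) on 1 probe, while its other 2 probes were not above background. For Osr1, an early kidney factor, the rise of 1.02 ± 0.24 (adjusted p = 0.0208) was not called with no filter (0.0542) or without array 1 or 2 of E14.5 (0.066 and 0.0923). Without array 1 or 2 of E12.5, 2 and 3 genes of this list were lower, and without array 2 of E14.5 1 was.

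Epithelial genes were mostly lower, 7 lower, 1 higher and 5 not past of 13 (median -0.52). Epcam, an epithelial adhesion molecule, was at 1.39 and 1.43 on the E12.5 arrays, 0.71 and 0.44 on those of E13.5, and -0.11 and -0.89 on those of E14.5, a fall by 1.91 ± 0.27 (adjusted p = 0.00512). Cldn6, a tight junction protein, fell by 1.71 ± 0.15 (adjusted p = 0.00167), and Crb3, a polarity protein, fell by 1.56 ± 0.21 (adjusted p = 0.0045), at -1.09 and -0.56 with normexp. These are general epithelial genes, and Epcam is also made by germ cells. Spint1, a protease inhibitor of epithelia, was the exception, at -4.43 and -3.44 on the E12.5 arrays, -1.27 and -1.11 on those of E13.5, and -0.65 and -0.95 on those of E14.5, a rise of 3.13 ± 0.33 (adjusted p = 0.00253). Krt8 was among the lower genes (adjusted p = 0.0464), but its other probe was at -0.42 and not called (0.0863). The brightest probe of Npnt was at -0.47 (0.0544) and another at -0.71 (0.0823). A further Npnt probe, not well above background at E12.5, was called higher, by 1.14 (0.0215). Lower genes were fewer without array 1 or 2 of E12.5 or array 2 of E14.5, and more without array 1 of E14.5. The medians were then -0.54, -0.60, -0.37 and -0.77.

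Genes of tubule formation were higher, 3 of the 4 tested, with 0 lower and 1 not past (median 0.85). Jag1, a Notch ligand, rose by 1.27 ± 0.12 (adjusted p = 0.00222) on its brightest probe, while its other probe ran from -6.02 to -5.26 over the 6 arrays with the stages overlapping. Wnt4, the signal that turns mesenchyme into tubules and that somatic cells of the gonad also make, was at 0.59 and 0.76 on the E12.5 arrays, 1.04 and 1.24 on those of E13.5, and 1.68 and 1.69 on those of E14.5, a rise of 1.01 ± 0.13 (adjusted p = 0.00428). Fgf8, a growth factor for nephron precursors, rose by 0.68 ± 0.14 (adjusted p = 0.016), which no longer passed without array 2 of E12.5 (0.0665) or array 1 of E14.5 (0.0585). The transport receptors Lrp2 and Cubn, which mark working tubules, had no probe matched.

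Among genes of the Müllerian duct, which precedes the female tract, and of duct mesenchyme, 2 were lower, 3 higher and 2 not past of 7 (median 0.06). Inhba, the activin subunit made by duct mesenchyme and also by fetal Leydig cells, was at 0.09 and -0.12 on the E12.5 arrays, 1.31 and 1.66 on those of E13.5, and 2.27 and 2.80 on those of E14.5, a rise of 2.54 ± 0.22 (adjusted p = 0.00178). Wnt7a, a signal of Müllerian epithelium, was not well above background at E12.5 and at least 2.21-fold higher at E14.5 (adjusted p = 0.0187), a call lost without array 2 of E12.5 (0.0625), array 1 of E14.5 (0.0519) or array 2 of E14.5 (0.091). Hoxa9 fell by 0.66 ± 0.12 (adjusted p = 0.0105) and Hoxd10 by 0.48 ± 0.11 (adjusted p = 0.0219), patterning genes along the duct, the Hoxd10 call being lost in 5 of 12 other settings. Without any 1 of the 4 arrays this list gave 1 lower, and 2 higher without array 1 of E12.5 or 1 higher without any of the other 3.

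**Figure D4:**
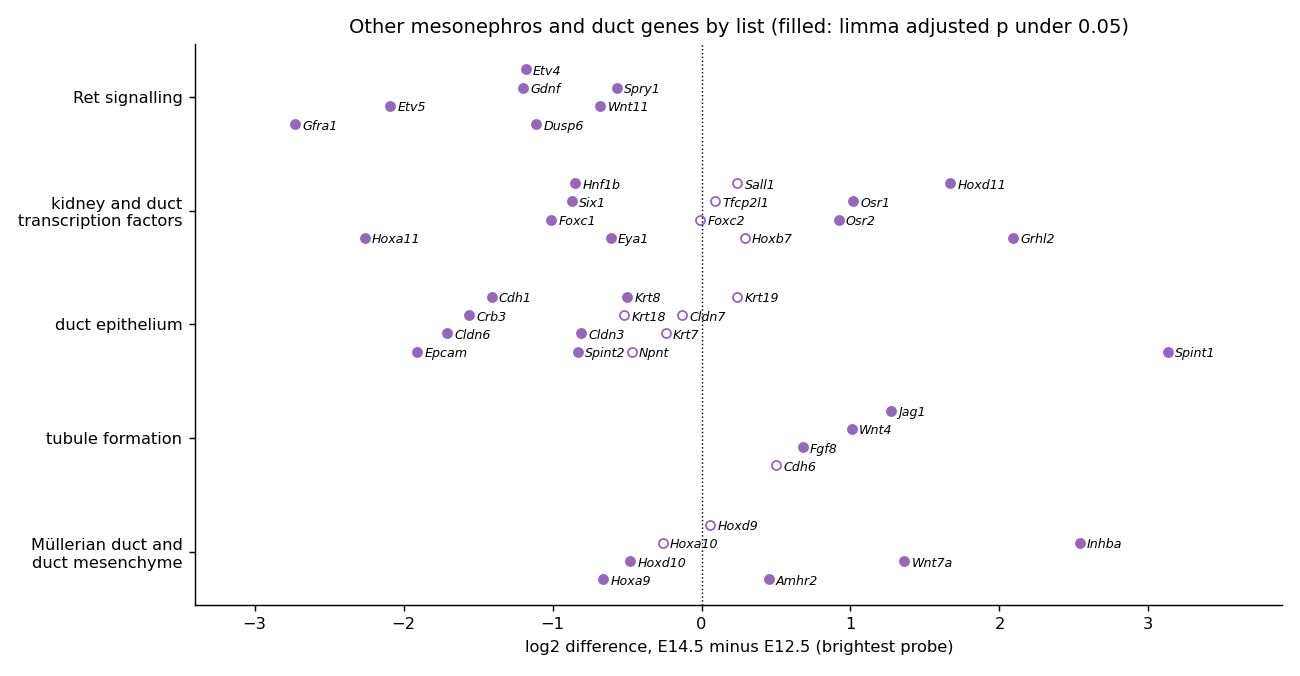
Log2 difference of E14.5 minus E12.5 (horizontal axis) for the 44 other duct and mesonephros genes tested, on their brightest probe, in 5 lists by role; filled circles passed an adjusted p of 0.05 in limma. All 7 genes listed under Ret signalling lie left of 0 and filled, the tubule genes lie right of it, and the remaining lists hold genes on both sides. Hoxa11, Hoxd11 and Wnt7a were not above background at 1 of the stages and are drawn at their fitted value, which is no bound.

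The genes whose pattern over the 6 arrays was most like that of Lhx1 were sought among 12474 named genes well above background on all arrays, by the root mean square difference of values centred on their own mean. They were Krt222 (0.16), Cpsf4l (0.21) and Zfp750 (0.22). Krt222, a keratin-family gene, was at -0.91 and -0.86 on the E12.5 arrays, -1.10 and -1.95 on those of E13.5, and -2.85 and -3.82 on those of E14.5, with the same array lower in each pair of later arrays as for Lhx1. For Calb1 they were Nefm (0.23), a neurofilament gene, Rhox9 (0.25), a homeobox gene of reproductive tissue, and Pnmt (0.26), the enzyme that makes adrenaline. Nefm was at -2.74 and -2.86, then -4.66 and -4.65, then -5.17 and -4.36. None of these 6 genes is in the duct lists, and likeness over 6 arrays of 3 stages is a description only.

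In the authors' deposited table, which holds 1 ratio for each probe at each stage, its denominator not given, log2 differences between the E14.5 and E12.5 columns were -2.72 for Lhx1, -2.11 for Calb1, 0.80 for Pax2, -0.25 for Pax8, -0.68 for Gata3, -1.49 and -1.48 for the Emx2 probes, 0.50 for Cdh16 and -0.33 for Wnt9b. Each lay within 0.05 of the value given above.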

How the data were processed

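The members and gene lists were chosen with earlier results of these data known. The 6 scanner files hold, per the file headers, the spot intensity from Agilent Feature Extraction 9.5 (the version also named in the submitters' processing notes), with background and spatial trend removed and no scaling across arrays. The authors' deposited table holds 1 linear ratio per probe and stage, and what it is relative to is not stated. Per the labels, Cy3 cRNA was made from 0.20 µg of RNA kept in RNAlater.

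Control and outlier spots were left out and spots of a probe averaged. From the 41174 probes, 21 without a value on some array were dropped. Genes were named through RefSeq accessions in the files (23366 probes of 16531 genes named, 17787 unnamed). The files' 2 slides carry 2 releases of these accessions, which differ for 2904 probes; the later was used, and all 10 member probes have the same symbol in both. Signals were log2-transformed and each array's 75th percentile subtracted. The comparisons used limma 3.58.1 (R 4.3.3) with the 6 arrays in 1 fit (lmFit and eBayes, 3 residual and 2.71 prior degrees of freedom, two-sided), after a check on simulated data. All member probes were named, from each other list up to 4 called genes with the largest change between E12.5 and E14.5, and the 3 genes most like Lhx1 and Calb1. List members outside that rule were named after their values were seen, to spell out a count. Alternatives were other scalings, normexp (offset 50, on spot medians), filters, probe summaries, priors, a replicate block and leaving out single arrays. With 2 arrays per stage, their number limits the precision. Figures were drawn with matplotlib 3.10.9.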

Additional observations from a re-analysis of the deposited data

How the results depend on the processing

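Over the differences of single probes of the 9 genes and all alternatives, 337 kept their direction and side of the threshold or, where the authors' deposited table gives no test, moved by less than the spread of the duplicates. Of the others 12 moved past the threshold, 15 moved back from it, 15 changed sign in the fits and 2 without a test moved by more than that spread. The calls of Lhx1 for E14.5 against E12.5 (-3.02 to -2.21), and of Calb1 and the first Emx2 probe against E12.5 at both later stages, held in all 13 alternatives.

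For E13.5 against E12.5, 4 of the 9 probes were called, but 2 with no background filter and 2 without any single array. Over all probes there were 7776 calls, 3354 with no filter, 4246 with the brightest probe and 4192 with the mean of each gene's probes, and 1953 to 4088 without single arrays. For E14.5 against E13.5, 0 of 9 became 1 with normexp (Lhx1). The 1 call over all probes became 16 with median scaling, 369 with normexp, 0 with the filter on all 6 arrays, 7 with the brightest probe, 0 with the mean of probes, 6 with a trend and robust prior, 2 with the 4 arrays of 1 slide, and 1 to 17 without single arrays. For E14.5 against E12.5, 11398 calls became 7552, 6239 and 6138 with no filter, the brightest probe and the mean, and 5924 to 8033 without single arrays. The 21 other duct genes that were lower became 11 to 20 without single arrays. Fewer features were tested with 1 value per gene, and fewer arrays when 1 was left out; for the other changes the cause was not tested.

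No value that changed sign was called. In the authors' deposited table Calb1 for E14.5 against E13.5 was at -0.01, in place of 0.13. With normexp these were Pax2 at 0.04 and Wnt9b at 0.03 (E14.5 against E13.5), Pax8 at 0.06 and Wnt9b at 0.13 (E13.5 against E12.5), and Pax8 at 0.29 and Wnt9b at 0.16 (E14.5 against E12.5). Without single arrays, E14.5 against E13.5 ran from -0.10 to 0.35 for Calb1, -0.30 to 0.22 for Pax2, -0.48 to 0.16 for Gata3, -0.63 to 0.01 for the second Emx2 probe and -0.36 to 0.27 for Wnt9b, and E14.5 against E12.5 from -0.54 to 1.58 for Cdh16. Of the calls, 52.5% were higher for E14.5 against E12.5, and 37.0% with median scaling, which moved all probes by -0.16, 49.3% with quantile normalization and 61.9% with normexp; the probes of the 9 genes then gave 5, 5 and 4 lower and 1 higher each.

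Whether array numbers pair the samples was not established. Deviations of same-numbered arrays had correlations across probes of -0.115 between E12.5 and E13.5 and -0.089 between E12.5 and E14.5. Between E13.5 and E14.5, whose arrays shared a slide, the correlation was 0.241. With the array number as a replicate block, Lhx1 for E14.5 against E12.5 was at -2.70 (limma adjusted p = 0.00784) and Calb1 at -2.10 (0.00725), and no call of the 9 genes changed.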
